A study of Rattus norvegicus with 6 samples.

Results

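The smooth muscle contractile apparatus is described here through 33 rat genes. They encode smooth muscle actins, smooth muscle and non-muscle myosins, calponins and transgelins, and the enzymes that switch myosin on and off. The others encode thin-filament regulators, intermediate filament proteins, and proteins of the dense bodies and Z-line-like anchors. Members were found by symbol. Every probe set of the array annotated with 1 of these symbols and no other entry was taken. This gave 54 of 31042 probe sets, for 32 of the 33 genes. A further 7 with several gene entries were set aside as ambiguous, 1 of which lists Myh9 under 2 gene identifiers. The array had probe sets of their own for 14217 genes in all. Myl6 had no probe set of its own. Tropomyosins were not included.

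Smooth muscle cells from rat aorta, at passage 3 to 5, were kept without serum in medium with albumin before the experiment, in both groups. Cultures under fluid shear stress spent 24 h at 14 dyn per square centimetre in a parallel-plate flow chamber, and static control cultures were kept without flow. There were 3 arrays per group, numbered as pairs 1 to 3 in a design stated to be paired. The labels used here give neither the strain, age or number of donor rats nor what a pair shared, so each p-value speaks only of the spread among these 6 arrays, part or all of which may be technical, and flow cannot be told apart from other differences between chamber and static culture.

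Smooth muscle contracts when calcium and calmodulin activate myosin light chain kinase, which phosphorylates the regulatory light chain and lets myosin pull on actin filaments. Myosin phosphatase reverses this step, and calponin, caldesmon and smoothelin bind the thin filament. Filaments are anchored in dense bodies, the counterpart of Z-lines in striated muscle. In culture, aortic smooth muscle cells are known to lower many of these genes as they leave the contractile state. Several of the genes carry CArG boxes, the sites bound by serum response factor with its partner myocardin.

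Values are MAS5 signals, a linear brightness per probe set, deposited with a trimmed mean of 100.0 on every array. Median signal was 21.1 to 22.6 on static arrays and 17.3 to 18.9 on sheared arrays. For the beta-actin control probe sets, log2 of 3′ over 5′ signal, a sign of RNA quality, was 0.22 to 0.29 on static and 0.37 to 0.42 on sheared arrays, while that of Gapdh was 0.16 to 0.17 and 0.15 to 0.16. Its part in the results was not tested. Of the smooth muscle markers, Acta2, Tagln, Cnn1, Smtn, Myh11 and Lmod1 gave at least 68.9 on each static array, whereas desmin was close to the array medians. Many markers of other cells were dim: 8 of 13 endothelial and 5 of 11 leukocyte genes lay below the filter on dim signals. That filter drops 30% of all probe sets. Pecam1, Vwf, Nos3, Ptprc and Itgam did not exceed 8.6 on any array. Brighter ones were Egfl7 (75.8 to 125.2 over the 6 arrays), Cd14 (81.9 to 200.9), Flt1 (24.1 to 66.1) and Erg (16.7 to 54.1). Summed signal of the endothelial list was 236.6 to 259.1 on static and 217.8 to 236.5 on sheared arrays, and that of the leukocyte list 218.7 to 277.3 and 162.0 to 204.6. Of the endothelial markers tested, Flt1 rose (0.66, adjusted p = 0.0022), though not when its probe sets were averaged (0.10). Egfl7 fell (-0.40, adjusted p = 0.020), though not after either other scaling. Nor did Egfl7 pass without pair 3 (-0.37, adjusted p = 0.13) or when its probe sets were averaged (-0.25, adjusted p = 0.10). Of the leukocyte markers, Cd14 fell (-0.68, adjusted p = 0.00096), while the dim Cd68 (0.70, adjusted p = 0.0037) and Coro1a (0.44, adjusted p = 0.027; 0.087 without pair 2 and 0.15 without pair 3) rose, by 0.28 and 0.15 with a pseudocount of 64. Fibroblast markers, many of which cultured smooth muscle cells also express, summed to 7904 to 10887 on static and 7329 to 10599 on sheared arrays. Of 11 tested, 4 fell and 3 rose, in number near the shares over all genes (30.2% and 27.9%). In size the falls were larger: all 4 were of at least 2-fold, against 9.72% of all genes that fell that much. Pdgfra (-2.25) and Twist2 (-1.50, or -0.60 and -3.41 with pseudocounts of 64 and 1) led the falls, and Dpt (0.46) and Dcn (0.39) the rises. The part of these markers in the results was not tested. Neither Dpt nor Dcn passed without the pairing as a block (adjusted p = 0.57 and 0.20). With RNA from whole cultures, fewer cells of a type and less RNA per cell cannot be told apart.

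Contractile genes were mostly lower in sheared cells. Of the 32 genes, each represented by its brightest probe set, 18 fell, 3 rose and 11 did not pass at an adjusted p of 0.05 (limma, paired). Among the 18, Pdlim7 has a dimmer probe set called the other way. Of all 11248 genes tested 58.1% were called, 30.2% as fallen and 27.9% as risen. The median log2 fold change was -0.35 for the 32 genes and -0.05 for all genes. Falls of at least 2-fold were seen in 8 of the 32, against 9.72% of all genes, and 1 gene, Tmod3, rose that much. All sheared arrays lay below all static arrays in 19 of the 32 genes (33.9% of all genes) and above them in 2 (30.7%). By probe set, 47 of 54 passed the filter on dim signals, and 31 of these were called, 27 as fallen and 4 as risen, beside 52.8%, 28.5% and 24.3% of all probe sets. Of the 47, 12 fell at least 2-fold, beside 8.95% of all, and sheared arrays lay all below in 29 and all above in 3, beside 32.9% and 27.1%. Over all probe sets, 46.1% of calls were rises, a share that was 52.3% after quantile normalization and 59.1% after median centring. Among the contractile genes it was 14.3%, 4.76% and 21.1%. Fold changes were taken after adding 16 to each signal, which draws log2 differences between low signals towards 0, and intervals are at the 95% level.

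**Figure D1:**
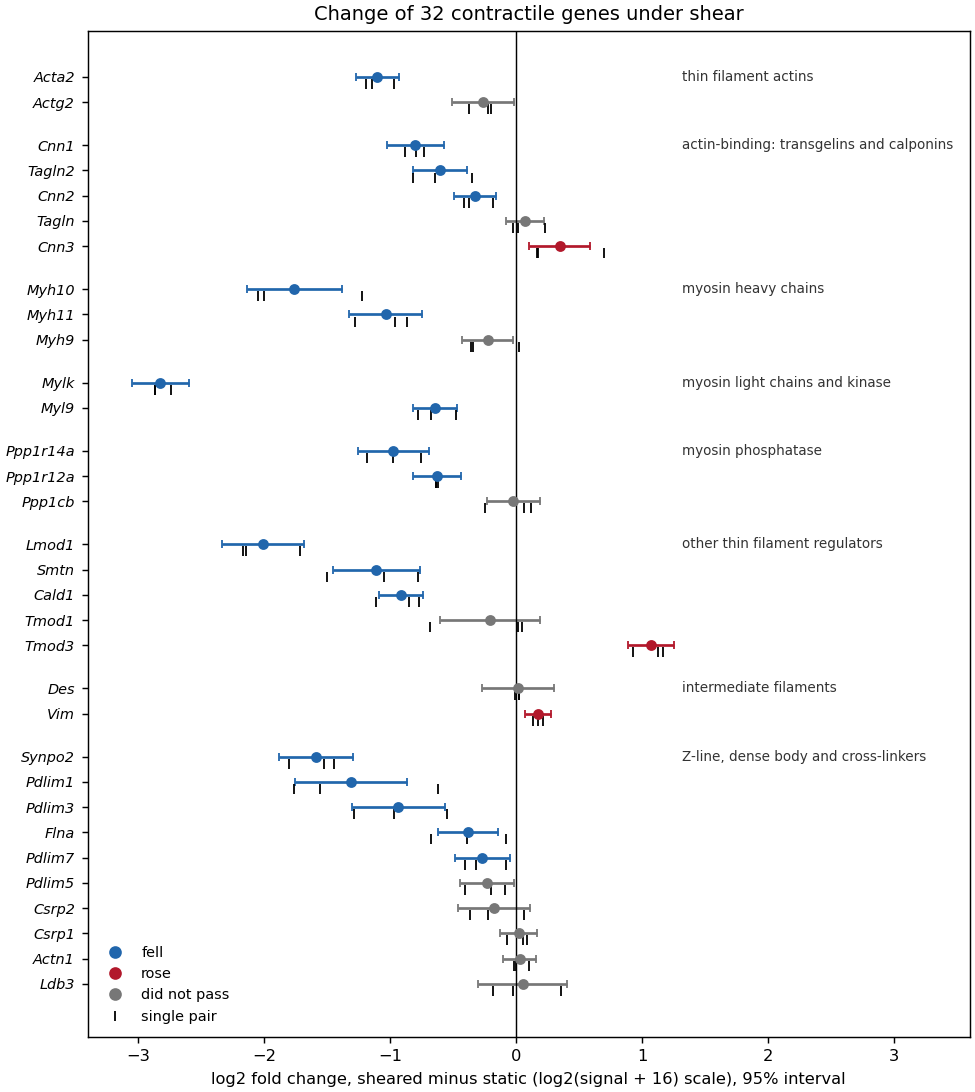
Log2 fold change (sheared minus static, log2(signal + 16) scale, x axis) of the 32 contractile genes by role, 1 probe set per gene; points are the paired limma estimate with its 95% interval and short bars the 3 single pairs. Mylk lies lowest at -2.82 and Tmod3 highest at 1.07.

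Of the actins, Acta2, the smooth muscle alpha actin of the thin filament, fell. Static arrays 1 to 3 gave signals of 1657, 1970 and 1807, and sheared arrays 1 to 3 gave 740.0, 852.3 and 916.0. Every sheared array was lower than every static array. The means were 1811 ± 157 and 836.1 ± 89.1 (SD, n = 3), a log2 fold change of -1.10 (interval -1.27 to -0.93, adjusted p = 1.7e-05). Actg2, the gamma actin typical of visceral smooth muscle, overlapped between groups, with 192.0, 129.1 and 116.3 on static and 162.2, 96.3 and 99.5 on sheared arrays. It did not pass (-0.26, interval -0.51 to -0.01, adjusted p = 0.072), though each pair was lower under shear. It passed without pair 1 (-0.28, adjusted p = 0.030), in a fit that rests on the other pairs alone.

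Promoter stretches are shown as examples for 3 genes with large falls in which a regulatory motif was found (Acta2, Mylk and Myh10), and for Cnn2, 1 of the 2 members with a CArG box, whose smaller fall depended on the setting. They come from RefSeq (build GRCr8), which had 30 entries of 300 bases (250 before to 50 after the start) for 28 of the 33 symbols. Tagln, Myh11, Myl9, Lmod1 and Pdlim3 had no entry. Motifs searched on both strands were the CArG box (CC, 6 bases of A or T, then GG), a CArG-like box that allows 1 G or C among the 6 and so includes the CArG box, the M-CAT motif CATTCC, which TEAD factors bind, and TATAAA. Stretches before the start site are printed 5′ to 3′ on the gene's strand, with CArG or CArG-like boxes and CATTCC (or its reverse complement) in capitals.
Acta2: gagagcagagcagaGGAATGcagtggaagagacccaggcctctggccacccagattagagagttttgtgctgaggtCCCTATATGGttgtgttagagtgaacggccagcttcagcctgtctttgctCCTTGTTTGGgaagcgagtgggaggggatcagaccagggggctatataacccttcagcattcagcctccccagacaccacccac
Cnn2: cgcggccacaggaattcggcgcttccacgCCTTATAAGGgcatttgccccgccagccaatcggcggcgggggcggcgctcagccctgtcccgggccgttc
Mylk: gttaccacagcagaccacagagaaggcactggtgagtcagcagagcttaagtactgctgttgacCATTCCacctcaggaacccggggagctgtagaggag
Myh10: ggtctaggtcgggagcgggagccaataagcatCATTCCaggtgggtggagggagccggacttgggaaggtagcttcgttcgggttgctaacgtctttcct
These are chr1:241172504-241172713 (minus strand), chr7:10370313-10370412 (minus), chr11:79498575-79498674 (minus) and chr10:53893114-53893213 (plus).

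The Acta2 stretch holds 2 CArG-like boxes, starting 134 and 84 bases before the start site, and the reverse complement of CATTCC 196 bases before it. In Cnn2 a CArG box starts 71 bases before the start, and CATTCC starts 36 bases before it in Mylk and 118 in Myh10. Over all 33469 promoters of this length, 1.64% held a CArG box, 9.42% a CArG-like box, 14.2% CATTCC and 14.2% TATAAA. Among the 30 entries of the contractile genes, 2 held a CArG box (Cnn2 and Ldb3) and 3 a CArG-like box (these and Acta2). CATTCC was found in 6 (Acta2, Cald1, Flna, Myh10, Mylk and Tagln2) and TATAAA in 3 (Cald1, Myh9 and Vim). A match describes letters in this window and is not a site shown to be bound.

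The transgelins and calponins, actin-bundling and actin-binding proteins with a shared calponin domain, did not move as a unit: 3 fell, 1 rose and 1 did not pass. The shares over all genes were 30.2% fallen and 27.9% risen. Tagln (SM22-alpha), among the commonest markers of smooth muscle, gave 2395, 2962 and 2697 on static and 2818, 2907 and 2721 on sheared arrays. The groups overlapped, and the estimate was 0.07 (interval -0.08 to 0.23, adjusted p = 0.38). It passed as risen after median centring (0.22, adjusted p = 0.018), and its sign turned after quantile normalization (-0.09). Tagln2, the more widely expressed relative, fell from 2015 ± 37.5 to 1330 ± 201 (SD, n = 3; -0.60, adjusted p = 0.00096).

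Cnn1, the smooth muscle calponin that restrains myosin ATPase, gave 405.3, 283.4 and 298.3 on static and 212.3, 164.9 and 165.7 on sheared arrays. Pair 1 was highest in both groups, yet the groups did not overlap, and the drop was alike in the 3 pairs (-0.88, -0.73 and -0.79). Under shear Cnn1 was lower by a log2 change of -0.80 (interval -1.03 to -0.57, adjusted p = 0.00030). Cnn2, a calponin found in many cell types, fell by less, from 1611 ± 12.8 to 1288 ± 115 (SD, n = 3; -0.32, adjusted p = 0.0065). That call was lost after median centring (-0.17), without pair 2 (-0.28, adjusted p = 0.062) and without pair 3 (-0.30, adjusted p = 0.078). Cnn3, the acidic calponin, rose from 1711, 2146 and 2106 on static to 2786, 2421 and 2367 on sheared arrays, with every sheared array above every static array. Its estimate of 0.35 (interval 0.10 to 0.59, adjusted p = 0.025) rested largely on pair 1 (0.70, against 0.17 in pairs 2 and 3), was 0.17 without that pair, and did not pass after quantile normalization (0.25, adjusted p = 0.097).

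**Figure D2:**
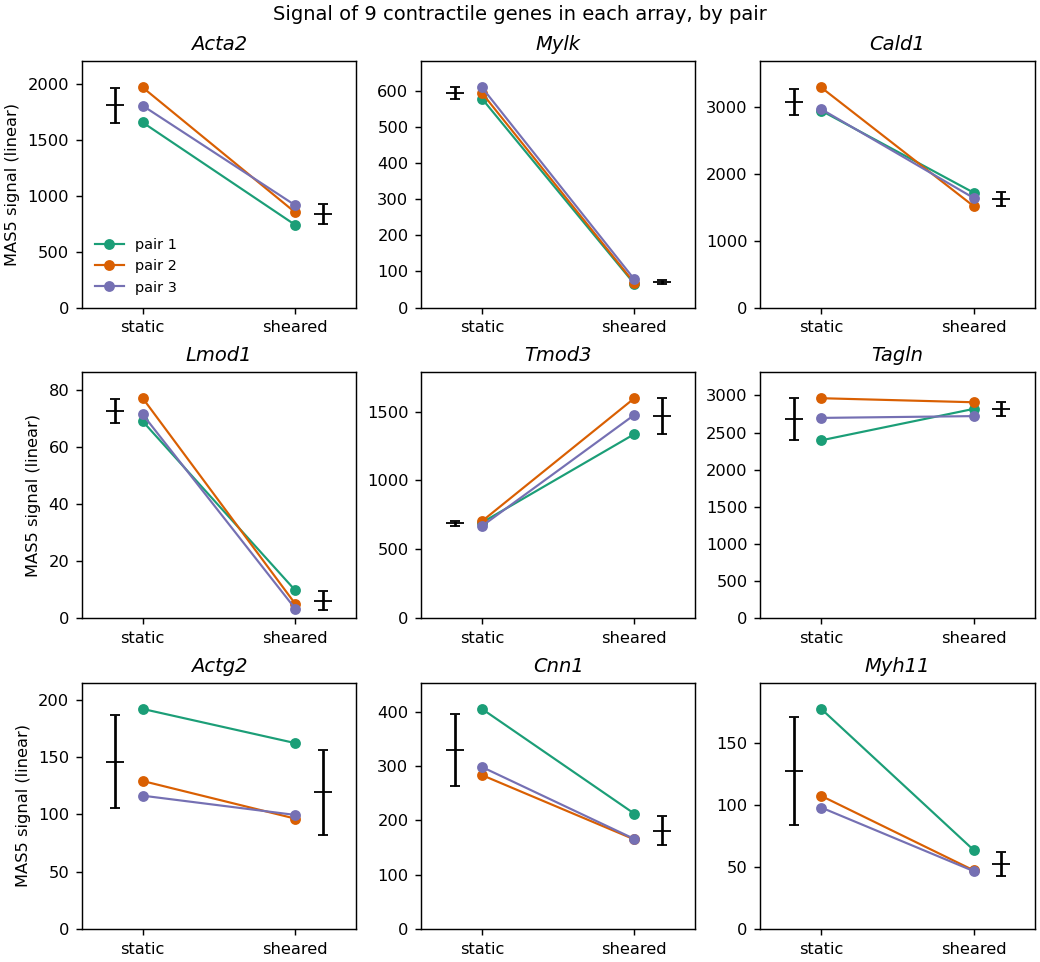
MAS5 signal (linear, y axis from 0) of 9 contractile genes in static and sheared arrays; lines join the 2 arrays of a pair and the black marks give mean and SD of 3 arrays. Acta2, Mylk, Cald1 and Lmod1 fall in each pair, Tmod3 rises, Tagln overlaps, and pair 1 lies above the others in both groups for Actg2, Cnn1 and Myh11.

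Myosin heavy chains are the motors that pull on actin. Myh11, the smooth muscle heavy chain and the most restricted marker of this cell type, gave 177.6, 107.4 and 98.0 on static and 63.7, 47.3 and 46.7 on sheared arrays. No sheared array reached the lowest static one. Myh11 fell by 1.04 on the log2 scale (change -1.04, interval -1.33 to -0.74, adjusted p = 0.00030), and a dimmer second probe set also fell (-0.55, adjusted p = 0.016).

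The non-muscle heavy chains differed in their calls. Myh10 (non-muscle myosin IIB, a chain linked with the embryonic and dedifferentiated smooth muscle state) gave 562.2, 736.5 and 665.4 on static and 231.7, 171.7 and 148.4 on sheared arrays. Its mean signal was 3.56 times lower under shear (-1.76, interval -2.14 to -1.38, adjusted p = 7.9e-05), with the smallest drop in pair 1 (-1.22, against -2.00 and -2.05). Myh9, non-muscle myosin IIA, overlapped between groups (1820 ± 65.9 and 1562 ± 190, SD, n = 3) and did not pass (-0.22, adjusted p = 0.061). In pair 1 alone the sheared Myh9 value was not below its static partner (0.02). Without pair 1 Myh9 passed as fallen (-0.35, adjusted p = 1.3e-05), as it did after quantile normalization (-0.32, adjusted p = 0.017). The fit without pair 1 rests on 2 pairs, and it called 7190 of all probe sets as fallen, against 6188 in the main fit. The difference between the Myh10 and Myh9 changes was not tested.

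Mylk, the kinase that phosphorylates the regulatory light chain, had the largest fall of the 32 genes on this scale. Static arrays gave 577.8, 593.3 and 608.7, and sheared arrays 65.3, 67.8 and 77.8. Within each group the 3 arrays were close, and mean signal was 8.44 times lower under shear (-2.82, interval -3.05 to -2.59, adjusted p = 1.8e-06). The 3 pairs gave -2.87, -2.86 and -2.74. A dimmer Mylk probe set fell as well, from 25.1, 30.6 and 27.5 to 3.8, 2.5 and 8.4 (-1.07, adjusted p = 0.00053). Myl9, the regulatory light chain that Mylk acts on, fell from 1916 ± 43.6 to 1225 ± 148 (SD, n = 3; -0.64, adjusted p = 0.00026).

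Myosin phosphatase has a catalytic subunit (Ppp1cb) and a targeting subunit (Ppp1r12a, MYPT1); CPI-17 (Ppp1r14a) is a separate protein that inhibits it when phosphorylated. The inhibitor fell: Ppp1r14a gave 158.4, 176.0 and 200.5 on static and 87.2, 81.6 and 79.1 on sheared arrays, without overlap (-0.97, interval -1.26 to -0.69, adjusted p = 0.00035). The catalytic subunit Ppp1cb overlapped between groups (969.4 ± 85.8 and 953.5 ± 58.2, SD, n = 3) and did not pass (-0.02, interval -0.23 to 0.19, adjusted p = 0.86). For the targeting subunit Ppp1r12a the brightest probe set fell (-0.63, adjusted p = 0.00041) by nearly the same amount in each pair (-0.62, -0.63 and -0.63). Another of its 4 probe sets fell too (-0.80, adjusted p = 0.00057), while the remaining ones did not pass (-0.05 and -0.15).

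Among the other thin-filament regulators, caldesmon (Cald1), which blocks myosin from actin until it is released, fell on both of its measurable probe sets. The brighter gave 2940, 3286 and 2962 on static and 1715, 1514 and 1636 on sheared arrays (-0.91, interval -1.09 to -0.74, adjusted p = 4.7e-05). The other gave 1872, 1837 and 1756 on static and 568.6, 415.0 and 407.4 on sheared arrays (-1.95, interval -2.18 to -1.73, adjusted p = 5.4e-06). Both fell without overlap, and their intervals did not overlap each other; whether they detect different transcripts of the gene is not given in the annotation used here. Another Cald1 probe set, below the filter, was at 5.2 or less on every array.

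Lmod1, leiomodin, which nucleates actin filaments in smooth muscle, gave 68.9, 77.0 and 71.3 on static and 9.8, 5.1 and 3.4 on sheared arrays. The sheared signals are at the low end of the array, where values could not be told from background. Its log2 fold change of -2.01 (interval -2.33 to -1.69, adjusted p = 2.0e-05) was -0.96 with a pseudocount of 64 and -3.47 with a pseudocount of 1, and it passed at each. Smtn, smoothelin, found in contractile smooth muscle, fell on both probe sets (-1.11, adjusted p = 0.00050, and -0.81, adjusted p = 0.0013), the brighter from 202.7 ± 29.1 to 85.63 ± 15.7 (SD, n = 3).

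The tropomodulins cap the pointed end of actin filaments. Tmod3, the form present in many tissues, was the contractile-apparatus gene that rose most: static arrays gave 694.8, 704.6 and 669.3, and sheared arrays 1337, 1597 and 1477. Each sheared array was above every static one (1.07, interval 0.89 to 1.25, adjusted p = 2.5e-05). Tmod1, the muscle and erythrocyte form, was dim. Its brighter probe set gave 20.1, 20.7 and 20.2 on static and 21.3, 6.9 and 20.5 on sheared arrays, so that 1 sheared array was low and the others level with static (-0.21, adjusted p = 0.35). Its other probe set lay below the filter.

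Of the intermediate filament genes 1 rose and 1 did not pass, beside shares over all genes of 27.9% risen and 30.2% fallen. Desmin (Des), the muscle intermediate filament protein, gave 16.2 to 17.9 on static and 16.3 to 18.4 on sheared arrays, near the array medians (0.01, interval -0.27 to 0.30, adjusted p = 0.93). Vimentin (Vim), the mesenchymal filament protein, was bright, at 4295, 5430 and 4853 on static and 4986, 5977 and 5466 on sheared arrays, where the highest signal on any array was 6325. Each sheared Vim value was above its own static partner, although the groups overlapped. The estimate of 0.17 (interval 0.07 to 0.28, adjusted p = 0.011) did not pass without the pairing as a block (adjusted p = 0.17), nor after quantile normalization (0.005, adjusted p = 0.94) or without pair 3 (adjusted p = 0.12), and was 0.32 after median centring.

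Among the 10 genes of Z-line, dense body and cross-linking proteins, 5 fell and 5 did not pass by their brightest probe sets, with Pdlim7 among the 5 that fell. Over all genes tested, 30.2% fell and 27.9% rose. Synpo2 (myopodin), an actin-bundling protein of the Z-line and dense body, fell. Its brightest probe set gave 68.0, 79.3 and 82.8 on static and 14.8, 17.1 and 12.4 on sheared arrays (-1.59, interval -1.88 to -1.30, adjusted p = 3.8e-05). The Synpo2 change was -0.84 with a pseudocount of 64 and -0.89 as a mean of its probe sets, and it passed in both. A pair of dimmer Synpo2 probe sets fell too (-1.34 and -0.52), and the fourth lay below the filter.

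The PDZ-LIM proteins link alpha-actinin to kinases and other partners. Pdlim1 gave 1784, 2001 and 1892 on static and 1157, 579.2 and 634.2 on sheared arrays. Sheared array 1 stood well above the other sheared arrays but still below all static ones (-1.31, interval -1.75 to -0.87, adjusted p = 0.00077), and the estimate was -1.66 without pair 1. Pdlim3 (ALP) fell from 57.5 ± 10.0 to 22.47 ± 5.37 (SD, n = 3; -0.93, adjusted p = 0.0017; -0.49 with a pseudocount of 64).

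Pdlim5 (ENH) did not pass on its brightest probe set (-0.23, adjusted p = 0.067), although all sheared arrays were below all static arrays, and it passed after quantile normalization (-0.30, adjusted p = 0.020). Of its other probe sets 2 fell (-1.02 and -0.43) and 1 did not pass (-0.27), and the mean over all 4 passed as fallen (-0.49, adjusted p = 0.0082). Pdlim7 (Enigma) had probe sets called in opposite directions. The brighter gave 530.6, 634.8 and 607.9 on static and 500.8, 507.3 and 454.5 on sheared arrays (-0.27, adjusted p = 0.044), and the dimmer 26.5, 28.7 and 36.1 on static and 55.0, 48.1 and 60.8 on sheared arrays (0.61, adjusted p = 0.0034). The brighter lost its call after median centring (-0.12), without pair 2 (-0.24, adjusted p = 0.22) and without pair 3 (-0.20, adjusted p = 0.32), and the mean of both did not pass (0.17, adjusted p = 0.20). Pdlim7 is counted as fallen by its brighter probe set alone, and its direction over both probe sets is not settled.

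**Figure D3:**
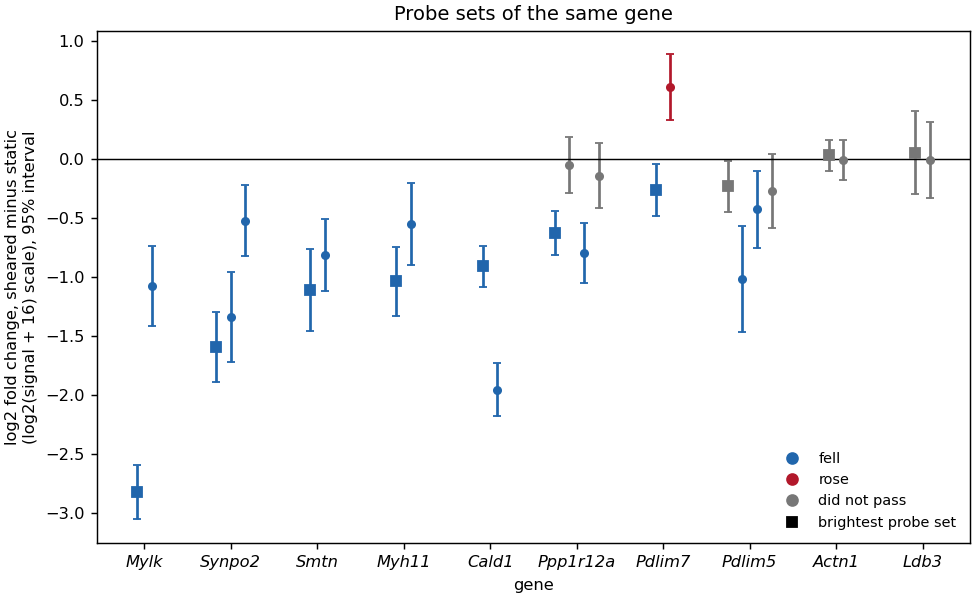
Log2 fold change (sheared minus static, log2(signal + 16) scale, y axis) with its 95% interval for each tested probe set of the 10 contractile genes with more than 1; squares are the brightest probe set of a gene. Both probe sets of Mylk, Smtn, Myh11 and Cald1 fell, those of Actn1 and Ldb3 lie at 0, and Pdlim7 has 1 below and 1 above 0.

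Among cross-linkers and LIM proteins, Flna fell and Actn1, Csrp1 and Csrp2 did not pass. Alpha-actinin 1 (Actn1), which ties actin filaments together in dense bodies and adhesions, gave 2319 ± 54.9 and 2365 ± 82.7 (SD, n = 3; 0.03, interval -0.10 to 0.16, adjusted p = 0.71), and its second probe set gave -0.01. Csrp1, a LIM protein that binds alpha-actinin, was at 1825 ± 43.9 and 1855 ± 99.5 (0.02, interval -0.12 to 0.17, adjusted p = 0.79). The signs of Actn1 and Csrp1 turned after quantile normalization (-0.09 for both). Csrp2, its smooth muscle relative, was at 149.7, 134.2 and 149.1 on static and 112.3, 112.6 and 156.9 on sheared arrays, so that sheared array 3 overlapped the static ones (-0.18, adjusted p = 0.26). Filamin A (Flna), a large actin cross-linker, gave 2706, 2977 and 2712 on static and 2566, 1856 and 2070 on sheared arrays, without overlap (-0.38, adjusted p = 0.016). Pair 1 dropped by 0.08 and pairs 2 and 3 by 0.68 and 0.39. The Flna call was lost after median centring (-0.23), without pair 2 (-0.23, adjusted p = 0.084) and without pair 3 (adjusted p = 0.053), and the estimate was -0.53 after quantile normalization. Ldb3 (Cypher/ZASP), a Z-line protein of striated muscle, had 6 probe sets, none above 15.6 on any array; 2 passed the filter and neither was called (0.05 and -0.01).

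Genes that work beside these, in lists drawn up for this report with earlier results of these data known, were counted in the same fit. In the list of adhesion and Z-line proteins, 21 of 28 tested fell and 2 rose, with a median of -0.77. Over all genes tested 30.2% fell and 27.9% rose, with a median of -0.05. Sorbs2, a vinculin-binding adaptor, fell from 286.3, 189.2 and 220.2 to 8.7, 11.7 and 11.1 (-3.21, adjusted p = 4.7e-06; -1.98 with a pseudocount of 64), and the dense-body protein palladin (Palld) from 783.4 ± 168 to 146.2 ± 3.52 (SD, n = 3; -2.28, adjusted p = 7.0e-06). Paxillin (Pxn), a focal adhesion scaffold, rose (0.77, adjusted p = 0.00060). Filamin C (Flnc) rose by 0.27 (adjusted p = 0.031), but not without the pairing as a block (adjusted p = 0.21), after quantile normalization (0.23, adjusted p = 0.053), or without pair 2 or pair 3.

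In the list of proteins that control myosin phosphorylation, 9 of 18 tested fell and 3 rose, with a median of -0.51. The shares over all genes were 30.2% and 27.9%, with a median of -0.05. The soluble guanylate cyclase subunit Gucy1a1, which relaxes smooth muscle through cGMP, fell (-1.50, adjusted p = 0.00014; -0.63 with a pseudocount of 64 and -3.27 with 1), its sheared signals of 1.8, 1.6 and 10.7 being near the floor, as did the calmodulin kinase Camk2g (99.07 ± 6.99 to 42.27 ± 11.5, SD, n = 3; adjusted p = 0.00037). The small GTPase Rhob (1.45, adjusted p = 6.0e-05) and the cGMP phosphodiesterase Pde5a (1.24, adjusted p = 0.00018; 0.74 with a pseudocount of 64) rose.

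Of 25 tested genes of actin turnover and nucleation, 7 fell and 8 rose (4 and 13 after median centring), with a median of 0.08. In the main fit these counts lie near the shares over all genes, 30.2% fallen and 27.9% risen. The formin Diaph3 fell from 532.1 ± 23.3 to 98.17 ± 53.8 (SD, n = 3; -2.36, adjusted p = 4.5e-05) and cofilin 2 (Cfl2) by 0.73 (adjusted p = 0.00033). The formin Diaph1 (0.74, adjusted p = 0.0013) and the capping protein subunit Capza2 (0.74, adjusted p = 0.00024) rose. Differences between these lists were not tested.

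**Figure D4:**
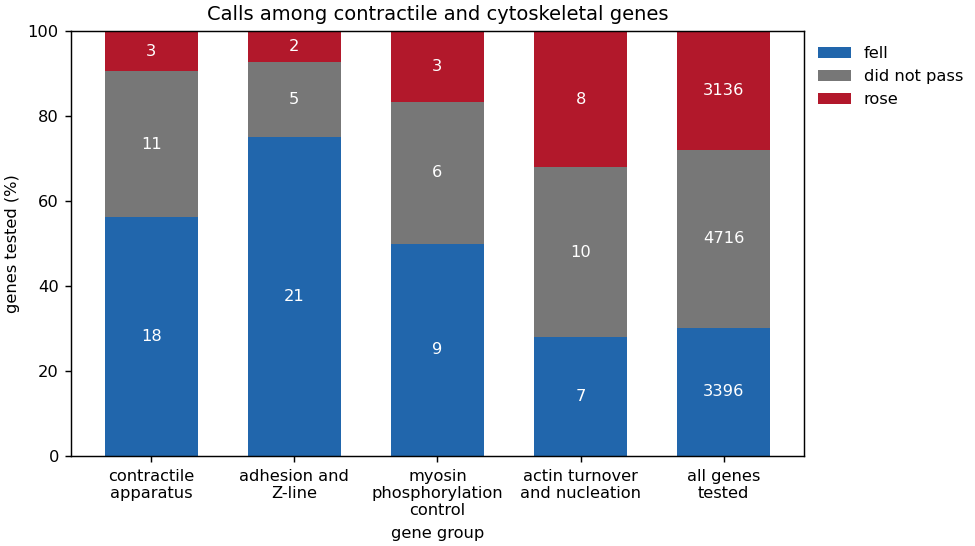
Share of tested genes (%, y axis) that fell, did not pass or rose in the contractile apparatus, 3 related lists and all genes; numbers in the bars are genes. Fallen genes number 18 of 32, 21 of 28, 9 of 18, 7 of 25 and 3396 of 11248, from left to right.

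Striated muscle isoforms were largely dim, with 16 of 26 below the filter and Myh6, Myh7, Tnni3 and Ttn at 10.4 or less on every array. Of the 10 tested, 5 fell, Myh1 among them by its brightest probe set, and 1 rose. The shares over all genes were 30.2% fallen and 27.9% risen. Skeletal alpha actin (Acta1), near-identical as a protein to the smooth muscle actins, gave 214.5, 92.0 and 99.0 on static and 127.1, 56.9 and 45.2 on sheared arrays (-0.72, adjusted p = 0.0014; adjusted p = 0.11 without the pairing as a block). Whether the Acta1 probe set also detects those actins was not tested. Myh1, a skeletal heavy chain, was not dim and was the brightest gene of this list. Its brightest probe set gave 863.4, 1023 and 1007 on static and 771.3, 546.4 and 470.4 on sheared arrays. That probe set fell (-0.71, adjusted p = 0.0071), but the mean over the Myh1 probe sets passed as risen (0.38, adjusted p = 0.046), so no direction is given. Cardiac troponin T (Tnnt2), dim throughout, rose by 0.54 (adjusted p = 0.026; 0.18 and 1.55 with pseudocounts of 64 and 1), but not without pair 1 (0.36, adjusted p = 0.11) or without pair 2 (0.56, adjusted p = 0.054), nor as a mean over its probe sets.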

How the data were processed

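Expression was measured on Affymetrix rat arrays in 3 static and 3 sheared cultures. The deposited intensity is a MAS5 signal per probe set, per the submitters' processing notes. Its version was not given in the sources used here, and detection calls were not used. The number of arrays limits the precision. Of 31042 probe sets that are not controls, the platform annotation gave 20826 exactly 1 symbol, 436 several and 9780 none; 53 of the 54 member probe sets matched a gene table of assembly GRCr8 by gene identifier and 0 symbols changed (Myh9 did not match and kept its symbol).

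To each signal 16 was added before log2, since arrays held 3 to 10 exact zeros. Probe sets in the lowest 30% by mean (limit 4.50 on the log2 scale) were dropped and 21729 tested in limma 3.58.1 (R 4.3.3; lmFit, eBayes with intensity trend, pairing number as fixed block), two-sided, with Benjamini-Hochberg adjustment over all of them. The fit was also run on simulated data with no pair effect and with residual spreads shuffled among probe sets. That run therefore does not test the block or the intensity trend. Each gene was represented by its brightest probe set, by mean over 6 arrays. The pairing comes from the labels and the design text. Deviations from group means correlated by 0.071, 0.065 and 0.063 within pairs 1 to 3. Between static and sheared arrays of different pairs the values were -0.071 to 0.018. Members, context lists and tests were chosen with earlier results of these data known. Every member is named and, of each other list, the called genes with the 2 largest rises and falls; others named, such as defining markers, only for their level. Alternatives were the pairing dropped or as a random effect, other scalings (quantile, median), no or a 50% filter, pseudocounts of 64 and 1, no trend, robust estimation, leaving out each pair, and averaging all probe sets of a gene. Figures were drawn with matplotlib 3.10.9.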

Additional observations from a re-analysis of the deposited data

How the results depend on the processing

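Of the 18 fallen contractile genes 15, and of the 3 risen ones Tmod3, kept call and direction under every alternative run; Cnn2, Flna, Pdlim7, Cnn3 and Vim did not. Over 444 values of the 32 genes, 12 changed sign. Fallen genes numbered 15 to 20 with 1 pair left out and 15 to 20 under the other alternatives. Risen ones numbered 2 to 3 with 1 pair left out, and 4 after median centring, where risen probe sets numbered 5. They numbered 1 after quantile normalization, without the filter or without the trend, where risen probe sets numbered 2. Over all probe sets, 4565 to 7190 fell and 3876 to 5819 rose with 1 pair left out. Without the block, 18 genes fell and 2 rose, and Vim was the 1 member gene that lost its call. Signs turned after quantile normalization for Actn1 (-0.086), Csrp1 (-0.092) and Tagln (-0.092), after median centring for Ppp1cb (0.13), and as a mean over probe sets for Myh1 (0.38), Pdlim7 (0.17) and Tmod1 (0.049). With 1 pair left out, values spanned 0 for Actn1 (-0.011 to 0.051), Csrp1 (-0.010 to 0.069), Ldb3 (-0.10 to 0.17), Ppp1cb (-0.092 to 0.091), Tagln (-0.0069 to 0.12) and Tmod1 (-0.33 to 0.030). Cnn3, Vim, Pdlim7 and Flna also did not pass without the filter or without the trend.

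In the related lists, actin turnover genes that fell numbered 4 after median centring and without the trend and 4 to 9 with a pair left out, and those that rose 13 after median centring, 5 without the filter or the trend and 5 to 8 with a pair left out. Risen adhesion genes numbered 1 without the block, with a random block, after quantile normalization and without the trend, and 1 to 3 with a pair left out. Fallen striated isoforms numbered 3 under both scalings, 2 with the 50% filter and 2 to 6 with a pair left out, and risen ones 2 without the filter, 0 with the 50% filter and 0 to 1 with a pair left out. Fits with a pair left out rest on 2 pairs. The causes were not tested. Signals near the floor, such as sheared Lmod1, have no reliable fold.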

Other observations

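Probe sets with several gene entries, 1 or more of them a contractile gene, were kept out of the counts. There were 5 that list both Acta2 and Actc1: 4 fell (-0.47, -0.51, -0.55 and -0.58, with adjusted p from 0.0045 to 0.018), and the dimmest lay below the filter, at 5.1 ± 1.18 on static and 1.6 ± 0.529 on sheared arrays (SD, n = 3). In all 5, every sheared array was below every static array. The probe set that lists Myl6, Myl6b and Myl6l gave 3405 ± 292 and 3248 ± 56.8 (-0.06, adjusted p = 0.44). A second Myh9 probe set, which carries that symbol with 2 gene identifiers, gave 494.6 ± 25.4 and 398.9 ± 80.9 (-0.32, adjusted p = 0.069).

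Arrays of pair 1 were the highest of their group in both groups for 4 of the 32 contractile genes (Actg2, Cnn1, Myh11 and Myl9), against 19.2% of all genes, and the lowest in both for 3 (Acta2, Mylk and Vim), against 13.9%; neither share stands far from that of all genes. Of 11 fibroblast markers tested, 8 were lowest in pair 1 in both groups. The matrix proteoglycan Dcn gave 1246, 2048 and 2012 on static and 1547, 2745 and 2759 on sheared arrays, and Dpt gave 26.3, 137.4 and 152.3 and 38.3, 186.1 and 243.5. The fall in pair 1 was smaller than in both other pairs for 13 of the 18 fallen contractile genes and larger for 4, with medians of -0.76, -1.01 and -0.86 in pairs 1 to 3. Over all genes tested the medians were -0.0034, -0.070 and -0.060, also least negative in pair 1. The part of these pair differences in the results was not tested.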
